A study of Arabidopsis thaliana with 4 samples.

Results

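The genes described here are 70 nuclear genes of Arabidopsis thaliana that were abundant in seedlings labelled as mutated in CMT3 and higher in seedlings labelled as also lacking TCX5 and TCX6. They were chosen from the deposited expression table by their values: a gene entered when both cmt3 libraries were at 1500 or more (the floor) and the lower tcx5/6;cmt3 library was at least 1.4 times the higher cmt3 library (the ratio). Of the 32548 genes in the table, 5684 were at or over the floor, and 72 of these (1.27%) met the ratio; the rule leaves out 2 of the 72. Because the genotype contrast itself chose the genes, their differences between genotypes are given as a description, with no test.

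TCX5 and TCX6 are proteins with a CXC domain, which binds DNA, and act in the plant DREAM complex together with RBR1, E2F factors and MYB3R factors. DREAM holds down cell cycle genes in cells that are not dividing, and its sites are the E2F site, the CHR-like element bound by CXC domains and the MSA element bound by MYB3R factors. CMT3 is a DNA methyltransferase that maintains methylation at CHG sites. Many of the 70 genes belong elsewhere: to transcription factors and other genes that respond within minutes to touch, ethylene or defence signals, and to proteins that loosen or build the cell wall as cells grow.

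mRNA was sequenced from 2-week-old seedlings grown on MS plates at 22 °C with 16 h of light and 8 h of dark. The libraries were 2 of genotype cmt3-/- and 2 labelled tcx5-/-tcx6-/-cmt3-/-, so every library is labelled as mutated in CMT3, and no line without that label is used here. Each library came from 1 g of whole seedlings, a mixture of organs in which more cells of a type and more RNA per cell cannot be told apart. The labels do not say whether replicates are separate sowings, and p-values therefore cover only the spread between libraries, which may be technical. Values are the authors' normalized signal per gene. Whether they were divided by gene length is not stated in the sources used here. The floor and the ranking by abundance therefore sort genes by this signal, and levels are not otherwise compared between genes.

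The named mutations were checked first. The TCX5 gene (AT4G29000, chromosome 4, 14293513 to 14297066, plus strand) was at 729.8 and 676 in cmt3 against 251 and 248.8 in the labelled triple mutant (log2 fold change -1.49 ± 0.12 (SE), limma adjusted p = 0.00121). TCX6 (AT2G20110) was at 198 and 179.8 against 919 and 1034 (log2 fold change 2.36 ± 0.13 (SE), limma adjusted p = 0.00044). Its signal was thus higher where the label names it as mutated. The label gives no RNA level, and gene-level values do not show whether the counted transcript is intact. CMT3 was at 822 and 662 against 1289 and 1343 (log2 fold change 0.83 ± 0.12 (SE), limma adjusted p = 0.00985). CMT3 signal was thus present in every library, and these gene-level values do not show the labelled cmt3 mutation. Without the mean-variance trend of the fit CMT3 did not pass (limma adjusted p = 0.111). The second genotype is therefore called the labelled triple mutant, and each direction below rests on that label. Library totals were 38264500 to 41106100, and the reads behind them are unknown. The median log2 fold change was -0.02 over all 23666 genes tested and -0.04 over the genes at the floor.

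Of all tested genes, limma called 6.15% higher and 2.32% lower in the labelled triple mutant (adjusted p under 0.05). Both labelled triple mutant libraries lay above both cmt3 libraries in 24.4% of the tested genes and below both in 25.7%. Among genes at the floor these shares of calls were 3.24% higher and 3.76% lower, and the same ratio in the other direction was met by 87 genes (1.53%). All 70 genes lay apart between genotypes by the rule's construction, and limma called 69 of them higher, all but FSD1, from which nothing is read. Together the 70 genes held 0.679% and 0.702% of all signal in the cmt3 libraries and 1.28% and 1.26% in the labelled triple mutant libraries. Their median ratio was 1.56, their median fold of group means 1.72 and their median log2 difference 0.78. The ratio lay between 1.4 and 1.5 in 26 genes, between 1.5 and 2 in 30, between 2 and 3 in 13, and over 3 in 1 gene, EXO. Most of them were thus modest differences in abundant transcripts, as the plot of every gene by library shows.

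**Figure D1:**
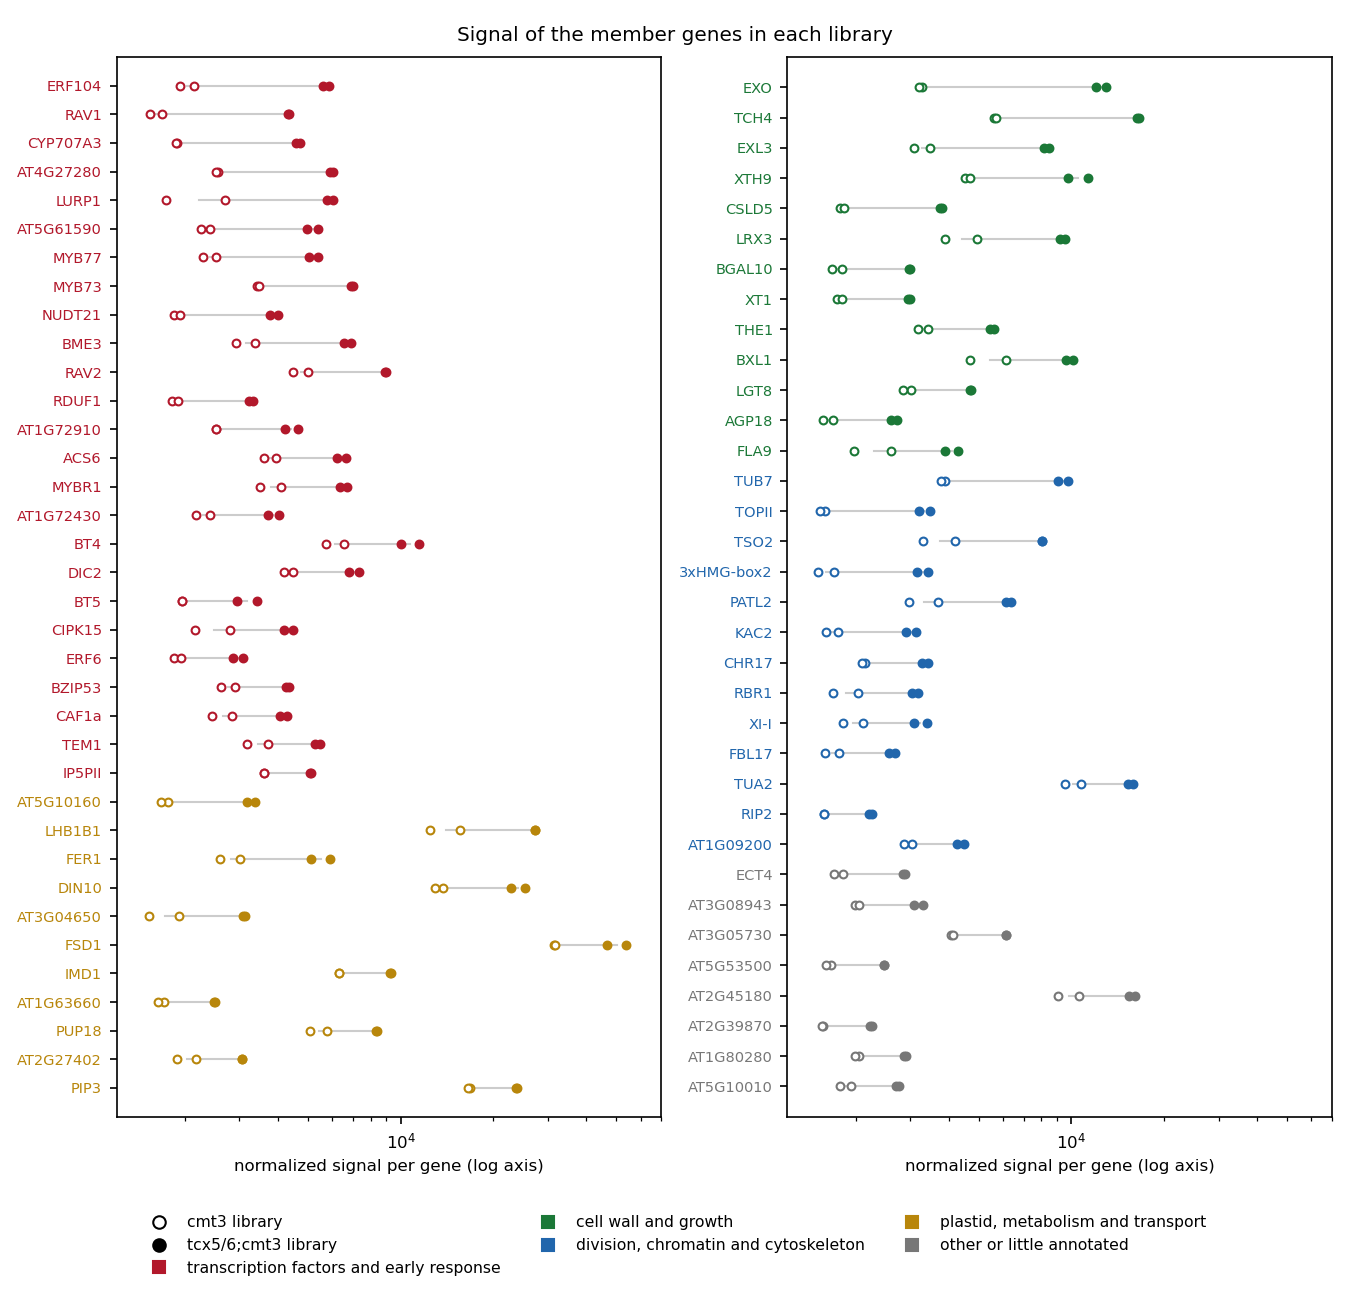
Normalized signal (log axis) of each of the 70 genes in the 2 cmt3 libraries and the 2 libraries labelled tcx5/6;cmt3, 1 row per gene, sorted by ratio within 5 groups by role. In each row the libraries of the genotypes are apart, which the rule required; EXO, at the top of the cell wall group, has the widest gap.

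The replicates of the labelled triple mutant lay closer together than those of cmt3. Among the 70 genes the median fold between the cmt3 replicates was 1.08, and between the labelled triple mutant replicates 1.04. The cmt3 replicates differed 1.2-fold or more in 10 of the 70 genes (14.3%, beside 21.1% of the genes at the floor), and the labelled triple mutant replicates in 0 of 70 (beside 1.76%). The rule used these values and favours genes whose replicates lie close together, so nothing is read from the lower shares among the 70. LURP1 had the widest spread between replicates, 2700.0 and 1739 in cmt3.

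The genes were sorted by known role, after their values were seen, into transcription factors and early response genes (25 genes, median ratio 1.67), cell wall and growth (13, 1.65), division, chromatin and cytoskeleton (13, 1.53), plastid, metabolism and transport (11, 1.47), and other or little annotated genes (8, 1.47). In the plot of ratio against abundance, the cell wall and transcription factor genes take most of the upper edge.

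**Figure D2:**
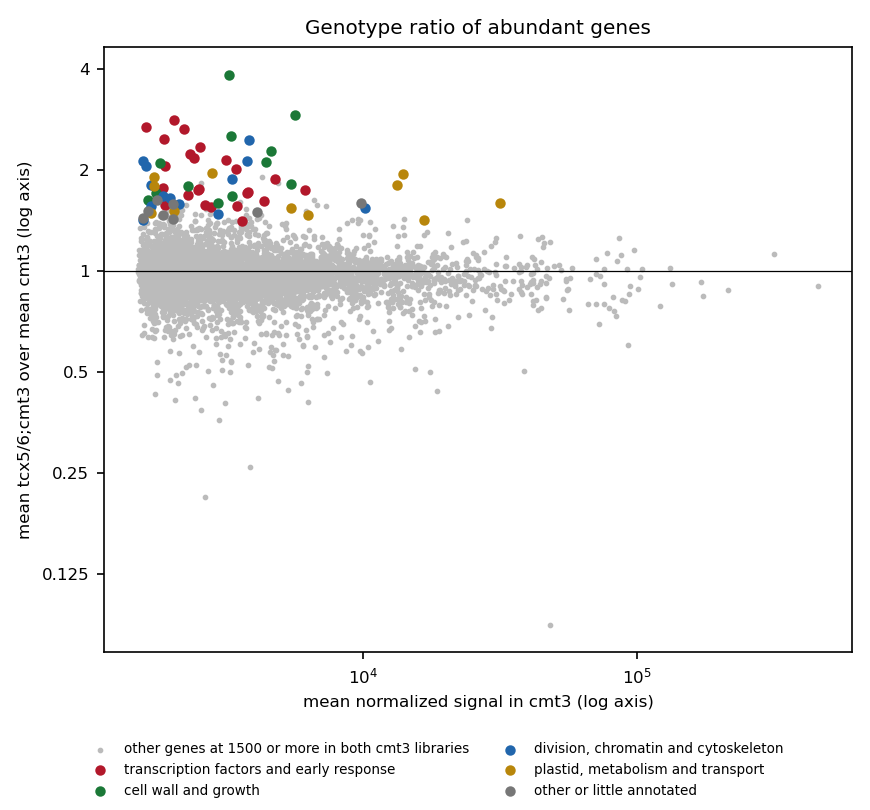
Ratio of the mean labelled tcx5/6;cmt3 signal to the mean cmt3 signal (log axis) against the mean cmt3 signal (log axis) for the genes at or over the floor of 1500; coloured points are the 70 genes by role, grey points the other genes. The coloured points span ratios of means from 1.41 to 3.86, and grey points among them had a pair of libraries closer than the ratio, or are the 2 genes the rule leaves out.

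The division and chromatin group holds the genes closest to the known targets of DREAM. TUB7 (AT2G29550, chromosome 2, 12643917 to 12646057, minus strand), a beta-tubulin of microtubules, was at 3884 and 3773 in cmt3 against 9758 and 9043 in the labelled triple mutant, 2.46-fold by the group means. TSO2, the small subunit of ribonucleotide reductase that supplies deoxynucleotides for DNA synthesis, was at 4204 and 3314 against 8021 and 8047 (2.14-fold). TOPII (AT3G23890, chromosome 3, 8624636 to 8631392, plus strand), the topoisomerase that untangles sister chromatids, was at 1594 and 1536 against 3474 and 3198 (2.13-fold). In each of these the pairs were well apart, although the cmt3 libraries of TSO2 differed by 1.27-fold. 3xHMG-box2 (AT4G23800, chromosome 4, 12390167 to 12392710, plus strand), a chromosomal protein of dividing cells, was at 1696 and 1511 against 3437 and 3153 (2.06-fold).

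RBR1 (AT3G12280, chromosome 3, 3913349 to 3919359, minus strand), the retinoblastoma protein that binds E2F factors within DREAM, was at 2033 and 1686 in cmt3 against 3173 and 3049 in the labelled triple mutant (1.67-fold). FBL17, an F-box protein that removes inhibitors of cyclin-dependent kinases, was at 1588 and 1769 against 2569 and 2685 (1.57-fold). A brake on the cycle and a gene that promotes it were thus both higher. CHR17 (AT5G18620, chromosome 5, 6195689 to 6202168, minus strand), an ISWI remodeler that slides nucleosomes, was at 2139.6 and 2098 against 3284 and 3428 (1.58-fold). The histone H3.1 gene AT1G09200, the replication-coupled form of H3, was at 3036 and 2868 against 4503 and 4259 (1.48-fold). XI-I, a myosin motor (AT4G33200, chromosome 4, 16002466 to 16014981, minus strand), was at 2112 and 1812 against 3392 and 3091. Of the remaining members, TUA2 (alpha-tubulin) was at 9512 and 10751 against 15305 and 15866, PATL2, a patellin of the kind found at the cell plate, at 2966 and 3683 against 6361 and 6138, and KAC2, a kinesin-like protein of chloroplast movement, and RIP2, annotated as a partner of ROP GTPases, lay 1.80-fold and 1.42-fold higher. The copies of tubulin and H3.1 genes are similar in sequence, so how reads were divided between copies is uncertain.

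Promoter stretches of these genes are shown because they hold the elements DREAM is known to bind. They were read from the RefSeq TAIR10.1 genome, 5′ to 3′ along the gene's strand and upstream of its annotated start; the capitals mark, on either strand, the E2F site (TTCCCGC, or the forms TTGGCGC and TTCGCGC and the form TTGCCGC), the CHR-like site (TTTGAA) and the MSA core (AACGG), where the text names them. For RBR1 (chr3:3919380-3919459, minus strand), CHR17 (chr5:6202189-6202318, minus strand) and XI-I (chr4:16015042-16015101, minus strand), the only 3 of the 70 with an E2F site, the capitals mark the E2F site and, in RBR1 and CHR17, an MSA core.
RBR1: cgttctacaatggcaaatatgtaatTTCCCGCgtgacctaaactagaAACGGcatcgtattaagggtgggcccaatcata
CHR17: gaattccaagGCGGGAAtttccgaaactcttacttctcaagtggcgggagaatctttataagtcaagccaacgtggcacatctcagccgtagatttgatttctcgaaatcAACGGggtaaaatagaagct
XI-I: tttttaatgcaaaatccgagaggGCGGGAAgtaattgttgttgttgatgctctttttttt

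For TOPII (chr3:8624546-8624615, plus strand), the capitals mark an MSA core. For 3xHMG-box2 (chr4:12390017-12390146, plus strand), TUB7 (chr2:12646078-12646217, minus strand) and CSLD5 (chr1:598698-598907, minus strand), whose stretches hold both kinds, the capitals mark MSA cores and CHR-like sites. The CSLD5 stretch holds 5 MSA cores. TOPII, CHR17 and XI-I also have a CHR-like site, outside the stretches shown.
TOPII: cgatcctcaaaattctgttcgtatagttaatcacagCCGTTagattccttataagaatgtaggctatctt
3xHMG-box2: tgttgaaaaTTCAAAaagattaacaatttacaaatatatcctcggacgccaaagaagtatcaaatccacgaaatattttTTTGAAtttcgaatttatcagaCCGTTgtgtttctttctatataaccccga
TUB7: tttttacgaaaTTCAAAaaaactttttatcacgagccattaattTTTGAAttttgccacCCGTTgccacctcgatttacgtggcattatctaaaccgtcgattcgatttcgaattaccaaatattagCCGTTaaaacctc
CSLD5: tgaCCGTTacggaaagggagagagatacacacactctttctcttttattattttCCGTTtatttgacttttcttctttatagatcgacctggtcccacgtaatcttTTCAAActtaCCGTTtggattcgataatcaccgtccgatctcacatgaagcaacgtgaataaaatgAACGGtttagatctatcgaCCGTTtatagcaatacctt

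Over the whole set these elements were present in shares not far from those of all promoters and of genes at the floor. Windows of 300 bases, from 250 before to 50 after the annotated start, were searched on both strands for 70 of the 70 genes and for 27431 promoters in all. The E2F site was in 3 of 70 windows (4.29%, beside 3.23% of promoters of genes at the floor and 3.63% of all promoters). The CHR-like site was in 36 (51.4%, beside 42.9% and 43.7%). The MSA core was in 20 (28.6%, beside 26.6% and 24.7%). Of these, 9 belong to the 13 genes of the division, chromatin and cytoskeleton group, which was formed after the values were seen. Among the other genes at the floor that limma called higher, the E2F site was in 8.70%, the CHR-like site in 47.8% and the MSA core in 33.9%. Elements of other pathways were searched in the same windows. The G-box CACGTG was in 5 (7.14%, beside 9.95% and 7.68%), the W-box TTGACC or TTGACT in 23 (32.9%, beside 31.6% and 32.4%), the telo-box AACCCTA in 4 (5.71%, beside 8.06% and 8.83%), site II TGGGCC or TGGGCT in 14 (20%, beside 28.9% and 21.7%), and TATAAA in 43 (61.4%, beside 51.1% and 52.1%). A match says only that the letters are there.

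Genes outside the 70 were tested in the same fit, and their log2 fold changes were computed after adding 1 to each value. Below, counts of genes that rose or fell are counts of limma calls. Each stands beside 6.15% higher and 2.32% lower among all tested genes. Across the fixed lists and the gene families below, 50 genes that are not among the 70 were called. Without limma's mean-variance trend only 10 of the 50 kept their calls (PHI-1, EXL5, XTH16, EDF3, ACS11, ACS8, SYP111, PCNA1, CDKB1;1 and FAS1), and without either labelled triple mutant library, on the same genes, limma called 0 of the 50 and 0 genes in all, with 2407 and 2490 genes at an unadjusted p under 0.05.

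The 8 markers of dividing cells moved with the division group. TOPII is the marker among the 70, and 7 of the other 7 rose, beside 6.15% of all tested genes. The list was chosen with earlier results of these data known, so this count is only a description. More dividing cells and more RNA per cell cannot be told apart here. CDKB1;1, a cyclin-dependent kinase of mitosis, rose from 299 and 383 to 1414 and 1358 (log2 fold change 2.03 ± 0.14 (SE), limma adjusted p = 0.000687). FAS1, a subunit of the chromatin assembly factor, rose from 594 and 528 to 1682 and 1675 (log2 fold change 1.58 ± 0.10 (SE), limma adjusted p = 0.000555), and SYP111, the syntaxin of the cell plate, from 795 and 757 to 1564 and 1615 (log2 fold change 1.03 ± 0.08 (SE), limma adjusted p = 0.00117). PCNA1, MCM2, MCM5 and CYCB1;1 rose by 0.89, 0.78, 0.74 and 0.92 on the log2 scale. The summed signal of the 8 markers was 5933 and 5855 in cmt3 against 12875 and 12397 in the labelled triple mutant, and none was at 0 in all libraries. Their part in the differences of the 70 genes was not tested.

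Relatives of the division genes moved in part. Of 13 other tubulin genes 4 rose and 0 fell, beside 6.15% and 2.32% of all tested genes: TUB1 from 517 and 716 to 1754 and 1521 (log2 fold change 1.42 ± 0.17 (SE), limma adjusted p = 0.00412), TUA1, TUA3 and TUB3 by 0.61, 0.42 and 0.50 on the log2 scale. Of the 13, 12 had a log2 fold change over 0 (median 0.35). At an unadjusted p under 0.05, 8 of them were higher and 0 lower. Of 4 other H3.1 genes 2 rose, AT5G10390 from 939 and 882 to 1343 and 1480.2 and AT5G65360 from 3859.6 and 3894 to 5343 and 5210.4 (limma adjusted p = 0.0101 and 0.0156). 3xHMG-box1, the single relative of 3xHMG-box2, rose from 326 and 397 to 898 and 832 (log2 fold change 1.26 ± 0.13 (SE), limma adjusted p = 0.00299), and of 5 other patellin genes 1 rose, AT1G30690, from 2743 and 2995 to 3975 and 3789. CHR11, the close copy of CHR17, and KAC1, that of KAC2, did not pass, with log2 fold changes of 0.12 (limma adjusted p = 0.548) and -0.0048 (limma adjusted p = 0.99). The difference between a gene and its relative was not tested.

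The cell wall and growth group included EXO and TCH4, the genes with the highest ratios of the 70. EXO (AT4G08950, chromosome 4, 5740219 to 5741591, plus strand), an apoplastic protein of brassinosteroid-promoted growth, was at 3285 and 3196 in cmt3 against 12926 and 12062 in the labelled triple mutant, 3.86-fold by the group means. EXL3 (AT5G51550, chromosome 5, 20939363 to 20940895, minus strand), its relative, was at 3479 and 3082 against 8171 and 8439.6 (2.53-fold). TCH4 (AT5G57560, chromosome 5, 23307006 to 23308680, minus strand), a touch-induced enzyme that cuts and rejoins xyloglucan in the wall, was at 5598 and 5685 against 16627 and 16272 (2.92-fold). The libraries of a genotype lay within 1.13-fold of each other in all 3 genes. XTH9, another enzyme of the TCH4 family, was at 4515 and 4688 against 11308 and 9748 (2.29-fold).

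The relatives of the EXORDIUM and xyloglucan enzyme genes did not all move. Of 5 other EXORDIUM genes 3 rose and 0 fell. PHI-1, a phosphate-responsive member of that family, rose from 630.2 and 855 to 3493 and 3835 (log2 fold change 2.32 ± 0.15 (SE), limma adjusted p = 0.000596), EXL5 from 1703 and 1485 to 5588 and 5224 (log2 fold change 1.76 ± 0.09 (SE), limma adjusted p = 0.000423) and EXL4 from 1070.2 and 1114 to 1627 and 1414 (log2 fold change 0.47 ± 0.10 (SE), limma adjusted p = 0.0347). EXL5 missed the floor in 1 cmt3 library, and EXL2 and EXL7 did not pass, at 0.10 and -0.90 on the log2 scale. Of 24 other xyloglucan enzyme genes 3 rose and 0 fell, beside 6.15% and 2.32% of all tested genes: XTH16 from 553 and 458 to 2360.0 and 2241 (log2 fold change 2.19 ± 0.11 (SE), limma adjusted p = 0.000423), XTH6 from 1725 and 1239.8 to 2674 and 2649 (log2 fold change 0.86 ± 0.15 (SE), limma adjusted p = 0.0191) and XTH24 from 2859 and 2661 to 4542 and 3617 (log2 fold change 0.56 ± 0.12 (SE), limma adjusted p = 0.0412). The median log2 fold change of these 24 was 0.07, and 7 of them were higher at an unadjusted p under 0.05. XTH24 was not called with a pseudocount of 0.1.

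Other wall genes had smaller ratios. LRX3, an extensin with leucine-rich repeats that ties the wall to growth, was at 4930.2 and 3888 in cmt3 against 9526 and 9161 in the labelled triple mutant (2.12-fold). CSLD5 (AT1G02730, chromosome 1, 594502 to 598657, minus strand), a cellulose synthase-like protein that builds the new wall of dividing cells, was at 1774 and 1837 against 3817 and 3747 (2.09-fold). THE1, a receptor kinase that senses wall damage, was at 3183 and 3439.9 against 5466 and 5603 (1.67-fold). Of these 3, LRX3 differed most between its cmt3 libraries, and CSLD5 and THE1 lay within 1.1-fold. Of the enzymes that trim wall sugars, BXL1, a xylosidase, was at 6158 and 4709 against 9617 and 10153, and BGAL10, a galactosidase that acts on xyloglucan, at 1806 and 1678 against 2994 and 2976. XT1, which adds xylose to xyloglucan, was at 1741 and 1810.0 against 2948 and 2993. Synthesis and trimming genes of xyloglucan were thus both higher. The arabinogalactan proteins AGP18 and FLA9 lay 1.63-fold and 1.79-fold higher, and the glycosyl transferase LGT8 1.601-fold. Limma called 0 of the 4 other LRX genes, of the 4 other CSLD genes and of the 5 other receptor kinases related to THE1 (0, 1 and 0 at an unadjusted p under 0.05), with median log2 fold changes of -0.01, 0.24 and 0.08.

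The transcription factors included several members of 3 small families. ERF104 (AT5G61600, chromosome 5, 24766344 to 24767732, minus strand), an ethylene response factor of defence, was at 2142 and 1921 in cmt3 against 5594 and 5846 in the labelled triple mutant (2.82-fold). Its neighbour AT5G61590 (AT5G61590, chromosome 5, 24764256 to 24765511, minus strand), also a DNA-binding protein of that family, was at 2411 and 2250.4 against 4981 and 5417 (2.23-fold), and ERF6 was at 1842 and 1936 against 3082 and 2858 (1.57-fold). ERF104 and AT5G61590 were the only 2 of the 70 that lie next to each other on a chromosome. All 3 other tested genes of this branch rose: ERF5 from 1264 and 1363 to 1814 and 1892 (log2 fold change 0.50 ± 0.08 (SE), limma adjusted p = 0.0156), ERF2 from 1713 and 1424 to 2164 and 2207 (log2 fold change 0.48 ± 0.11 (SE), limma adjusted p = 0.0412) and ERF-1 from 1528 and 1487 to 2005 and 1859.6 (log2 fold change 0.36 ± 0.08 (SE), limma adjusted p = 0.0476). ERF2 and ERF-1 were not called with a pseudocount of 0.1, nor ERF-1 under the replicate block.

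Of the MYB factors of subgroup 22, linked to auxin and stress responses, 3 of 4 were among the 70. MYB77 was at 2288 and 2515 in cmt3 against 5053 and 5395 in the labelled triple mutant (2.18-fold), MYB73 at 3419.5 and 3464 against 6986 and 6891 (2.02-fold), and MYBR1 at 3497 and 4100.1 against 6354 and 6712 (1.72-fold). The remaining gene, MYB70, was below the floor and rose from 376 and 462 to 1097 and 1063 (log2 fold change 1.37 ± 0.13 (SE), limma adjusted p = 0.00192). MYBR1 is overlapped by an annotated gene on the same strand. Of the RAV and TEM factors, which repress growth and flowering genes, RAV1 (AT1G13260, chromosome 1, 4542168 to 4543970, plus strand) was at 1684 and 1543 against 4305 and 4353 (2.68-fold). RAV2 was at 5015 and 4481 against 8991 and 8877 (1.88-fold), and TEM1 at 3718 and 3167 against 5294 and 5473 (1.56-fold). EDF3, the single other tested gene of this family, rose from 70.9 and 78.5 to 200.3 and 193 (log2 fold change 1.39 ± 0.22 (SE), limma adjusted p = 0.0134).

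The other regulators were of mixed kinds. The GATA factor BME3, known from seed germination, was at 2924 and 3369.8 in cmt3 against 6539 and 6926 in the labelled triple mutant (2.14-fold), and the leucine zipper factor BZIP53 at 2625 and 2909.6 against 4259 and 4361 (1.56-fold). BT4, a scaffold protein with BTB and TAZ domains, was at 6539.9 and 5751 in cmt3 against 10001 and 11448, and BT5 at 1962 and 1952 in cmt3 against 2943 and 3435. Their relative BT1 fell from 6765 and 5709 to 3782 and 4220.4 (log2 fold change -0.64 ± 0.11 (SE), limma adjusted p = 0.0181), and BT2 and BT3 did not pass, at -0.04 and -0.10 on the log2 scale. Members of the BT family thus lay on both sides. CAF1a, a deadenylase that shortens mRNA tails, was at 2844 and 2448 against 4055 and 4294 (1.58-fold), and RDUF1, a RING ubiquitin ligase, at 1814 and 1891 against 3327 and 3231 (1.77-fold).

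Signalling and hormone genes completed this group. CYP707A3 (AT5G45340, chromosome 5, 18368532 to 18371021, minus strand), which breaks down abscisic acid, was at 1883 and 1867 in cmt3 against 4594 and 4719 in the labelled triple mutant (2.48-fold). Limma called 0 of its 3 relatives (0 at an unadjusted p under 0.05), with log2 fold changes of -0.14, 0.05 and 0.17. Of 11 abscisic acid and dehydration genes in the fixed list, none of them among the 70, 0 rose and 4 fell (beside 2.32% of all tested genes): COR15A from 17912 and 13029.9 to 7113 and 8681 (log2 fold change -0.96 ± 0.18 (SE), limma adjusted p = 0.0224), and COR15B, ERD10 and RD20 with log2 fold changes of -0.60, -0.77 and -0.96. A relation between these genes and CYP707A3 was not tested.

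ACS6, which makes the precursor of ethylene, was at 3603 and 3937 in cmt3 against 6237 and 6670.2 in the labelled triple mutant (1.71-fold). Of 9 other tested ACS genes 3 rose and 0 fell: ACS11 from 317 and 280.4 to 982 and 1116 (log2 fold change 1.81 ± 0.13 (SE), limma adjusted p = 0.000711), ACS8 from 19.97 and 22.2 to 128 and 136 (log2 fold change 2.59 ± 0.31 (SE), limma adjusted p = 0.00443) and ACS7 from 149 and 119 to 316 and 247 (log2 fold change 1.06 ± 0.22 (SE), limma adjusted p = 0.0345). AT4G27280 (AT4G27280, chromosome 4, 13663415 to 13664621, minus strand), an EF-hand calcium-binding protein, was at 2552 and 2526 against 5904 and 6016 (2.35-fold). NUDT21, a nudix hydrolase, was at 1842 and 1928 against 3777 and 4004 (2.06-fold), CIPK15, a kinase of calcium sensing, at 2162 and 2801 against 4470.2 and 4175, and AT1G72430, of the SAUR family, at 2164 and 2416 against 3705 and 4032. The cmt3 libraries of CIPK15 differed 1.296-fold, and those of the others lay closer together. IP5PII, an inositol phosphatase, and the carrier DIC2 lay 1.41-fold and 1.62-fold higher.

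Defence genes were few. LURP1 (AT2G14560, chromosome 2, 6213617 to 6215932, plus strand), induced by salicylic acid and pathogens, was at 2700.0 and 1739 in cmt3 against 5776 and 6019 in the labelled triple mutant (2.66-fold), and AT1G72910, with a TIR domain, at 2517 and 2521 against 4212 and 4633 (1.76-fold). Of 14 other salicylic acid genes 13 had a log2 fold change over 0 (median 0.50), 7 were higher at an unadjusted p under 0.05, and 2 rose and 0 fell, beside 6.15% and 2.32% of all tested genes: EDS16, the isochorismate synthase that makes the hormone, from 432 and 364 to 1134 and 889.6 (log2 fold change 1.34 ± 0.16 (SE), limma adjusted p = 0.00404), and BGL2, a glucanase, from 390.4 and 223 to 1296 and 756 (log2 fold change 1.74 ± 0.33 (SE), limma adjusted p = 0.0258). In the jasmonate list, which has no member here, 1 of 12 rose (TAT3) and 3 fell: OPR3, VSP1 and VSP2, with log2 fold changes of -0.80, -1.11 and -0.99.

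In the touch and early stress list, 3 of 12 genes were among the 70 (TCH4, ERF6 and CAF1a). Of the other 9, 3 rose and 1 fell, beside 6.15% and 2.32% of all tested genes. At an unadjusted p under 0.05, 5 of the 9 were higher and 2 lower. The zinc finger factors STZ and RHL41 rose from 2071 and 1834 to 2831 and 2664 (log2 fold change 0.49 ± 0.09 (SE), limma adjusted p = 0.022) and from 671 and 589 to 1047 and 1107 (log2 fold change 0.77 ± 0.11 (SE), limma adjusted p = 0.00756), and ERF5 is given above. WRKY33, a defence factor, fell from 9310.0 and 8990.5 to 7186 and 7049 (log2 fold change -0.36 ± 0.08 (SE), limma adjusted p = 0.0499). WRKY33 was not called without the filter, with a pseudocount of 0.1 or under the replicate block.

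**Figure D3:**
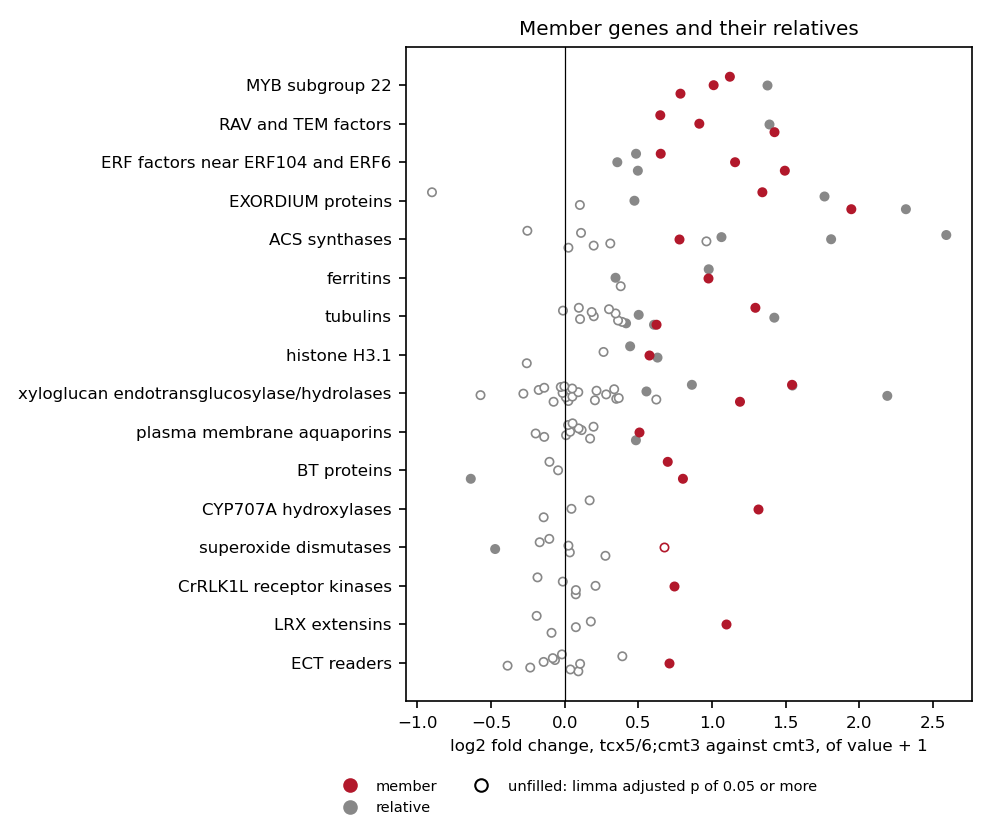
Log2 fold change, labelled tcx5/6;cmt3 against cmt3 on the log2(value + 1) scale, of genes among the 70 (red) and of the other tested genes of their families (grey); filled points had a limma adjusted p under 0.05. Red points lie to the right of 0 by the rule. Of the relatives, 1 of 1 MYB, 1 of 1 RAV, 3 of 3 ERF and 4 of 5 EXORDIUM genes lie to the right of 0. So do 16 of 24 xyloglucan enzyme genes (median 0.07) and 9 of 11 aquaporins (median 0.05). In the BT family all 3 relatives lie to the left of 0, 1 of them called.

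The plastid, metabolism and transport genes had low ratios and little overlap in function. LHB1B1, a chlorophyll-binding protein of photosystem II antennae, was at 15589 and 12413 in cmt3 against 27244 and 27188 in the labelled triple mutant (1.94-fold). Limma called 0 of the 18 light harvesting and Rubisco genes of the fixed list (1 at an unadjusted p under 0.05), and of the close copies of LHB1B1, CAB1, CAB2 and CAB3 had log2 fold changes of 0.18, -0.11 and -0.21, and LHB1B2 was listed at 0 in all libraries. How reads were split between LHB1B1 and LHB1B2 is uncertain. FER1 (AT5G01600, chromosome 5, 227953 to 230051, minus strand), a ferritin that stores iron in plastids, was at 3021 and 2601 against 5893 and 5124 (1.96-fold). Of 3 other ferritins 2 rose: FER4 from 711 and 644 to 1438 and 1237 (log2 fold change 0.98 ± 0.11 (SE), limma adjusted p = 0.00385) and FER3 from 2720.1 and 2514 to 3369.7 and 3276 (log2 fold change 0.35 ± 0.08 (SE), limma adjusted p = 0.0496). FSD1, an iron superoxide dismutase, was at 31339 and 31788 against 53924 and 46852 (1.596-fold). Of 6 other superoxide dismutases 0 rose and 1 fell, the copper and zinc enzyme CSD1, from 1328 and 1429.8 to 1040.4 and 949 (log2 fold change -0.47 ± 0.09 (SE), limma adjusted p = 0.0294).

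DIN10, a raffinose synthase family gene induced in the dark and by sugar starvation, was at 13724 and 12933 in cmt3 against 22856 and 25317 in the labelled triple mutant (1.81-fold), and limma called 0 of 4 other genes of the dark and sugar starvation list (1, lower, at an unadjusted p under 0.05). PIP3, an aquaporin of the plasma membrane, was at 16844 and 16549 against 23591 and 23816 (1.42-fold), and of 11 other such aquaporins 1 rose, PIP1C, from 10252 and 10875 to 14549.6 and 14985 (log2 fold change 0.48 ± 0.10 (SE), limma adjusted p = 0.0301). IMD1, an enzyme of leucine and glucosinolate synthesis, was at 6300.1 and 6312 against 9268 and 9331, and PUP18, annotated as a purine permease, at 5780.3 and 5099.9 against 8389 and 8354. The thioesterase family gene AT5G10160, the oxidoreductase family gene AT3G04650, AT1G63660, annotated as a GMP synthase, and AT2G27402, annotated as a plastid protein, lay 1.91-fold, 1.798-fold, 1.49-fold and 1.51-fold higher. Among the 8 remaining genes, AT2G45180, of the lipid-transfer protein class, was at 10619.6 and 9019 against 16051 and 15411 (1.602-fold), and AT3G05730, annotated as defensin-like, at 4073 and 4128 against 6149.9 and 6144 (1.499-fold). ECT4, which reads m6A marks on RNA, lay 1.63-fold higher with 0 of 10 relatives called by limma (3 at an unadjusted p under 0.05), and AT3G08943, AT5G53500, AT2G39870, AT1G80280 and AT5G10010 lay 1.44-fold to 1.58-fold higher.

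Many of the 70 genes have no intron, a property the rule did not use. A single exon was annotated in 26 of 70 (37.1%), beside 420 of 5598 other protein-coding genes at the floor (7.503%), 12 of 81 protein-coding genes lower by the same ratio (14.8%) and 16.8% of all tested protein-coding genes. Most of the 26 were transcription factors and early response genes (15 of 25) or cell wall genes (7 of 13), and 4 of the other 32 genes had 1 exon. Seen from the other side, 5.83% of the single-exon genes at the floor were among the 70, against 0.843% of those with more exons, and the same ratio downward was met by 2.69% and 1.32%. Among the other genes at the floor the median log2 fold change was -0.06 for single-exon genes and -0.04 for the rest. The median transcript length was 1809.5 bases in the 70 genes and 1936 in all protein-coding genes at the floor. These shares are descriptions, with no test.

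**Figure D4:**
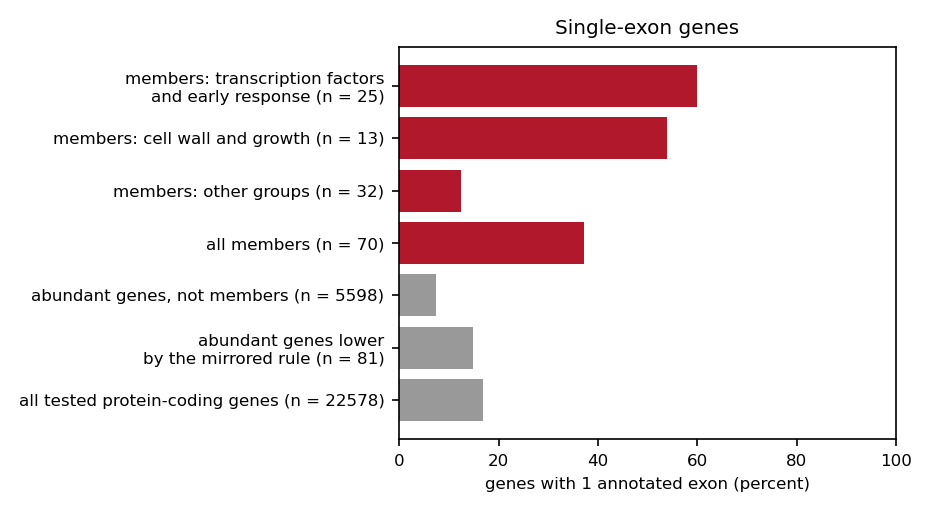
Percent of protein-coding genes with a single annotated exon (bars from 0), in the 70 genes, in other sets of genes and in groups of the 70. The bar of the 70 genes reaches 37.1%, against 7.503% for the other genes at the floor, and the transcription factor and early response bar reaches 60%.

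Words in the RefSeq product names, also not used by the rule, were counted in classes, which can be wider than their titles. The transcription factor class matched 7 of the 70 (10%, beside 3.55% of the genes at the floor): BME3, ERF6, MYB73, MYB77, MYBR1, RDUF1 and TEM1. It thus includes RDUF1, a RING ubiquitin ligase, and misses factors such as ERF104 and RAV1. The cell wall class matched 4 (5.71%, beside 1.41%) and ribosomal protein 0 (beside 3.57%). These are only some of the 26 classes, and others also differed, such as tubulin (2.86%, beside 0.299%) and transporter or channel (0, beside 3.11%). Of tested genes outside the 70 in the transcription factor class 5.64% rose, and in the cell wall class 6.23%, both near the 6.15% of all tested genes. Over the 26 classes this share ran from 0 (chlorophyll or photosystem) to 53.85% (kinesin, 14 of 26 genes). It was 29.03% for DNA replication or repair, 22.22% for tubulin and 0.6135% for ribosomal protein.

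The 70 genes were spread over the 5 chromosomes, with 16, 7, 13, 15 and 19 on chromosomes 1 to 5. Of 123 tested neighbours that are not among the 70, 11 rose (8.94%, beside 6.15% of all tested genes) and 2 fell (1.63%, beside 2.32%), with a median log2 fold change of 0.06. WRKY53, whose 3′ end overlaps that of 3xHMG-box2 on the opposite strand, fell from 1738 and 1528 to 1028 and 1056 (limma adjusted p = 0.00965, and 0.106 without the trend), while 3xHMG-box2 was higher. In all, 18 of the 70 are overlapped by another annotated gene, among them TUB7, MYB73, RBR1 and CHR17 on the opposite strand and TSO2 and MYBR1 on the same strand, and whether counting used strand is not stated in the sources used here.

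Few markers of other organs and cell types passed. Of 11 root, 5 vascular, 7 epidermis, 3 seed and 5 green tissue markers limma called 0 (0, 1, 1, 0 and 1 at an unadjusted p under 0.05, in that order), and 1 of 5 guard cell markers (KAT1) and 1 of 4 floral markers (SEP3, from 283 and 259 to 960.4 and 668) rose. The summed root signal was 65539.7 and 98782 in cmt3 against 61934 and 56185 in the labelled triple mutant, and the summed floral signal 321 and 305 against 1037 and 721. Most of the floral sum was SEP3 in every library. Limma called 0 of 16 clock and 0 of 8 housekeeping genes (2 and 0 at an unadjusted p under 0.05), and of 10 heat shock and chaperone genes 1 rose (HSP90.1). The part of these markers in the differences of the 70 genes was not tested.

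The thresholds cut through a continuous range. Just inside the ratio lay PIP3, AT5G10010 and IP5PII (1.401 each), and just outside it GATL6 (1.39), AT1G61100 (1.39) and AT3G22235 (1.38). Just inside the floor lay 3xHMG-box2, AT3G04650 and TOPII, with lower cmt3 values of 1511, 1532 and 1536. Just outside it lay MKK9 (lower cmt3 value 1491, ratio 1.46), EXL5 (1485, ratio 3.07) and AT1G60730 (1444, ratio 1.58).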

How the data were processed

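Gene expression was measured by mRNA sequencing of 4 seedling libraries, 2 of each genotype, grouped by their titles. The authors deposited a normalized signal per gene and library, made with HISAT2, edgeR and the TAIR10 build per the submitters' processing notes, without versions. How values were scaled, and the counter, strand setting and annotation, are not stated in the sources used here. Whole-read steps were sought in the low values, and 38.4% to 55.4% per library were whole multiples (tolerance 0.1), so reads were not recovered, depth is unknown and no count test was used. All 32548 identifiers matched the RefSeq TAIR10.1 annotation, the source of names, products, exons, 1-based coordinates and promoters. Nothing reported uses 4 more per-sample columns of the table, which match none of the samples; their ranges were seen when the table was opened.

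Values under 1e-10 were set to 0. The 23666 genes that reached 1 in at least 2 libraries were fitted as log2(value + 1) with limma 3.58.1 in R 4.3.3 (genotype term, mean-variance trend), with Benjamini-Hochberg adjustment over all of them at a threshold of 0.05. Fold changes on this scale understate those of low genes. Exact permutation tests are left out, since 2 libraries against 2 allow no two-sided p under 0.333. The fit was tested on simulated data. The members, the 18 gene lists, the 26 product-word classes and the 24 families were chosen with earlier results of these data known, and the families and role groups after the members' values were seen. Genes given with values in every library were the 12 members with the highest ratio, the 10 with the highest cmt3 mean, those in a list or a shared family, the 3 nearest each threshold on either side, up to 4 other genes per list with the smallest p, and called relatives of members; further members were added after their values were seen. Same-numbered libraries did not deviate together (correlation 0.000633 over all tested genes and 0.0692 at the floor), so numbers were not taken to pair libraries. Alternatives were quantile normalization, median centring, other filters, pseudocounts, thresholds, floors and ratios, limma without the trend, a replicate block and leaving out each library. Figures and tables were made with Python 3.11.15, SciPy 1.17.1 and matplotlib 3.10.9.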

Additional observations from a re-analysis of the deposited data

How the results depend on the processing

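All 70 genes kept a log2 difference over 0 in every alternative run on their values, with a lowest value of 0.45. Each move was set against the square root of the summed log2 variances of both replicate pairs, which is at least the SD of either pair. Of 490 recomputed values 467 moved by less than this, 23 moved by more and 0 changed sign. The rule fixed the sign when a library was left out, since it set the genotypes at least 1.4-fold apart. Median centring shifted a library by at most 0.03 on the log2 scale. The kept signs are therefore no independent support. The number of genes the rule finds was 139 with a floor of 1000, 40 with a floor of 2000, 120 with a ratio of 1.3 and 32 with a ratio of 1.6. It was 82 to 150 when 1 library was left out, which only loosens the rule, so these counts could not fall below 70. Quantile normalization gave 81 genes, 66 of them shared with the 70, and median centring 59, of which 57 were shared. The 1456 genes called higher and 549 called lower became 586 and 135 without the mean-variance trend and 780 and 173 at an adjusted p under 0.01. Leaving out 1 library and filtering again gave 720 to 3068 higher and 212 to 2568 lower. An alternative chosen after seeing the data left out 1 library on the same genes: it gave 1182 and 1281 higher and 341 and 530 lower without cmt3 replicate 1 and 2, and 0 in each direction without either labelled triple mutant replicate, where 2407 and 2490 genes had an unadjusted p under 0.05. Genes of the fixed lists outside the 70 were called higher in 20 cases and lower in 8; without the trend these were 4 and 0, and without 1 library 10 to 52 and 4 to 35, or 0 to 23 and 0 to 19 on the same genes. Limma called 69 of the 70 higher, 16 without the trend, 50 and 43 without labelled triple mutant replicate 1 and 2, and 0 without either on the same genes. With the replicate block 1314 genes were higher and 473 lower, with 20 and 8 list genes and 68 of the 70. The calls of EXL4, ERF-1, TUA3, FER3, CSD1, PIP1C, WRKY33 and KAT1 were lost under the block, those of ACS7, KAT1 and CYCB1;1 with quantile normalization, those of XTH24, ERF-1, ERF2, FER3, WRKY33, COR15B and KAT1 with a pseudocount of 0.1, and that of WRKY33 without a filter. The cause of these changes was not tested. Depth is unknown, so no limit of detection is given.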
